A study of Mus musculus with 9 samples.

Results

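The transcriptome of the control mouse morula is described here from the 3 libraries labelled as controls, out of 9 libraries in all, with every gene of the count files ranked by its level. The embryos were C57BL/6J morulae made by in vitro fertilization with the Nakagata protocol and CARD media from sires labelled as controls. The remaining 6 libraries came from embryos of sires given 6% or 10% ethanol, 3 libraries each, and enter below only where the likeness of libraries is compared. The series asks whether alcohol taken by the father before conception is followed by altered expression in the morula. No comparison between the groups is made here, and the question is what an unexposed morula expresses and how far replicate libraries agree. The labels do not say how many embryos, sires or fertilization sessions stand behind a library, so the spread between libraries may be technical in part.

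The morula is the stage at which the cleaving blastomeres flatten against each other, polarise and start to separate into outer cells, which will form the trophectoderm, and inner cells, which will form the pluripotent inner cell mass. Outer, polar cells keep the Hippo pathway inactive, so that the coactivator Yap1 and the factor Tead4 switch on Cdx2, while inner cells keep Pou5f1, Sox2 and Nanog. By this stage most maternal transcripts of the oocyte have been cleared, the burst of genome activation at the 2-cell stage has passed, and the embryo still draws much of its energy from pyruvate as glucose use increases. RNA of a whole morula is a mixture of both cell populations, and more cells of a type cannot be told apart from more RNA per cell.

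Levels are given as CPM, the share of a gene in the counts of its library times 1000000, in the order control 1, control 2 and control 3. The libraries held 11026334, 23553941 and 6813356 counts, so that 3 counts, the most that a count of 0 allows, came to 0.272, 0.127 and 0.440 CPM. This limit covers counting error only. Control 2 was the deepest and stood apart in its file, whose count header names the aligner RNA STAR, as do those of 3 ethanol libraries. Over the 16617 genes at 1 CPM or more in any library of the series, control 2 correlated with those 3 ethanol libraries at 0.922 to 0.927 (Pearson r of log2(CPM + 1), across genes and not across independent samples), and with the other controls at 0.867 and 0.883. Control 1, whose header names no aligner, was also closer to those 3 ethanol libraries than to the other controls. Over the 14232 genes at 1 CPM or more in any control, its r with them was 0.871 to 0.879. With controls 2 and 3 it was 0.854 and 0.814. Those 3 ethanol libraries held 19574710 to 27619281 counts, and the remaining ethanol libraries 6263465 to 10909921. Whether the header form, the depth or another feature of these libraries has a part in these likenesses was not tested. Ribosomal RNA also differed, since Rn18s took 1.28% of the counts in control 1, 0.0559% in control 2 and 0.119% in control 3. Because the libraries differ this much, single genes below are mostly given with their value in every library, and counts of genes in a list require a level in all 3.

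Of 53819 genes in the files, 9033 (16.8%) reached 1 CPM in all 3 libraries (they pass, in the words used below), and 14232 reached it in at least 1. No count was found in any control library for 32197 genes (59.8%). Protein-coding genes made up most of what was expressed. They supplied 90.0%, 89.0% and 91.1% of the counts, and 8222 of 21295 (38.6%) reached 1 CPM in all 3 libraries. Of 9223 processed pseudogenes 396 did so, and of 5184 long intergenic non-coding genes 70. The expressed genes spanned a wide range of levels. A median over the libraries of at least 10 CPM was reached by 6842 genes, of at least 100 CPM by 1888 and of at least 1000 CPM by 95. The 50 highest genes of a library took 21.0%, 23.2% and 22.5% of its counts, and the 500 highest 51.3%, 50.2% and 54.8%.

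The highest gene was mt-Rnr2, the large ribosomal RNA of the mitochondrion, at 59839.5, 88691 and 51758 CPM. The highest messenger RNA was Alppl2, an alkaline phosphatase of the early embryo and placenta, at 2385, 7327 and 7745 CPM, where control 1 was the low library. Cytosolic chaperones followed, with Hsp90aa1 at 4728, 7085 and 7281 CPM, Hspa8 at 4320.1, 7889 and 6157 CPM and Hsp90ab1 at 4703, 5059 and 3665 CPM. The top 30 by median CPM held 3 genes encoded by the mitochondrion, mt-Rnr2 included, and 5 ribosomal protein genes. The translation factors Eef1a1, Pabpc1, Eif3k, Eif4g2 and Eif2s2 were also in the top 30, and no predicted gene was. Several of the top 30 are enzymes. Sord, sorbitol dehydrogenase, stood at 6623, 5286 and 2861 CPM, Gldc, the glycine decarboxylase of the glycine cleavage system, at 6488, 2883 and 2954 CPM, and Gpd1l, a relative of glycerol-3-phosphate dehydrogenase, at 4387, 2589 and 2857 CPM. Control 1 was the high library for all 3 enzymes.

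Other genes of the top 30 point to endosomes, the cell cycle and the early embryo itself. Grn, the precursor of the lysosomal granulins, was at 3963, 3397 and 2016 CPM and Snx5, a sorting nexin of endosomes, at 3130.1, 1972 and 4913 CPM. Ccnb1, cyclin B1 of mitotic entry, was at 1075, 2239 and 5975 CPM, the widest range of the top 30, with control 3 high and control 1 low. Timd2, a cell surface receptor that binds ferritin, was at 3299, 3108 and 4841 CPM. Trim43a, a member of a gene family expressed in preimplantation embryos, was at 2435, 1072 and 3836 CPM and Fbxo15, an F-box gene of pluripotent cells, at 2013, 1730.0 and 2531 CPM. Their ranges were within 4-fold, and Timd2 and Fbxo15 were within 2-fold.

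Long transcripts collect more counts at the same number of molecules, so the ranking was repeated per kilobase of merged exon length. The genes that check the stage, and Bhmt and Mtr, are also given per kilobase below. All other levels, list medians and orders of genes within lists are in CPM and not corrected for length. On that scale of CPM per kilobase mt-Rnr2 stayed first, at 37825, 56063 and 32716. Rpl36, a short ribosomal protein gene, came second by median at 3465, 562 and 3610.2, but control 2 was 6.43-fold below control 3. The next were mt-Co1 at 3469, 3165 and 3321, Alppl2 at 1057, 3248 and 3433 and mt-Nd1 at 1885, 3037 and 5869 CPM per kilobase. Of the 30 highest genes per kilobase, 20 were also among the 30 highest by CPM. Short genes entered, and ribosomal protein genes numbered 9 in place of 5. Dppa3, a maternal-effect gene of early embryos and primordial germ cells, ranked 77th by CPM and 19th per kilobase, at 1277, 1032 and 2529 CPM per kilobase. The plot of level against rank shows where the lineage genes lie in the whole transcriptome.

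**Figure D1:**
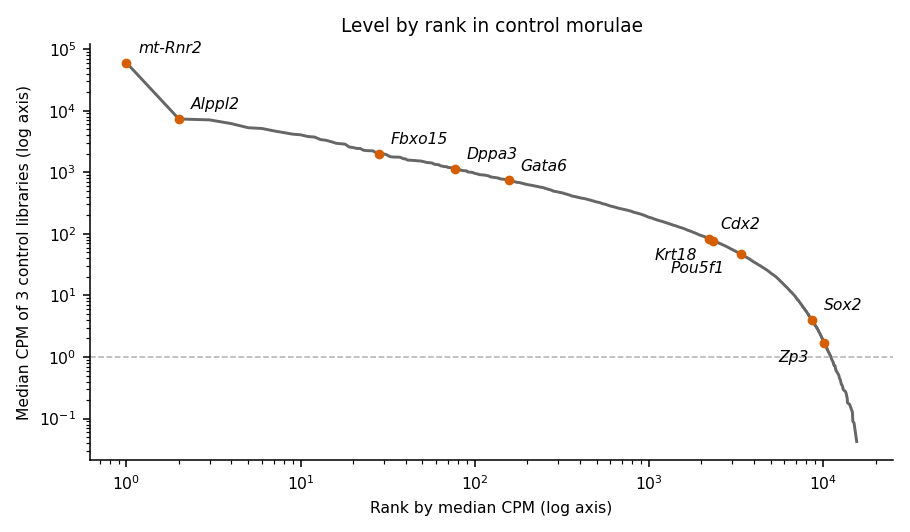
Median CPM of the 3 control libraries (vertical, log axis) against the rank of the gene by that median (horizontal, log axis), for genes with a median above 0; named genes are marked as orange points and the dashed line is at 1 CPM. The curve drops from 59840 CPM for mt-Rnr2 to 7327 CPM for Alppl2, and Cdx2, Krt18 and Pou5f1 lie between 10 and 100 CPM.

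The promoters of the expressed genes were read for their content of CpG dinucleotides, since most widely used mouse genes start in CpG islands and many genes of a single tissue do not. The window was the 250 bases before the annotated start, taken from RefSeq promoters of GRCm38.p6, the first listed start of each symbol, and 16424 of 21295 protein-coding genes had one. A promoter counts as CpG-rich where CpG reached 0.6 of the number that its C and G content would give. The CpG-rich share was 13.3% among 5081 genes with no count in any control library and 36.3% among genes under 1 CPM. It was 61.5% at 1 to 10 CPM, 76.5% at 10 to 100 CPM and 83.9% at 100 to 1000 CPM, against 46.8% of all promoters. At 1000 CPM or more it was 79.2% of 72 promoters. The letters TATAAA, read on both strands as TATAAA or TTTATA, followed the opposite order, in 22.3% of promoters of genes with no count, 4.93% at 100 to 1000 CPM and 11.9% of all promoters. The letters GGGCGG, read as GGGCGG or CCGCCC, were in 18.5%, 66.7% and 44.3%, and they contain a CpG themselves. With any listed start in place of the first, the CpG-rich share was 14.4% for genes with no count and 86.6% at 100 to 1000 CPM.

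**Figure D2:**
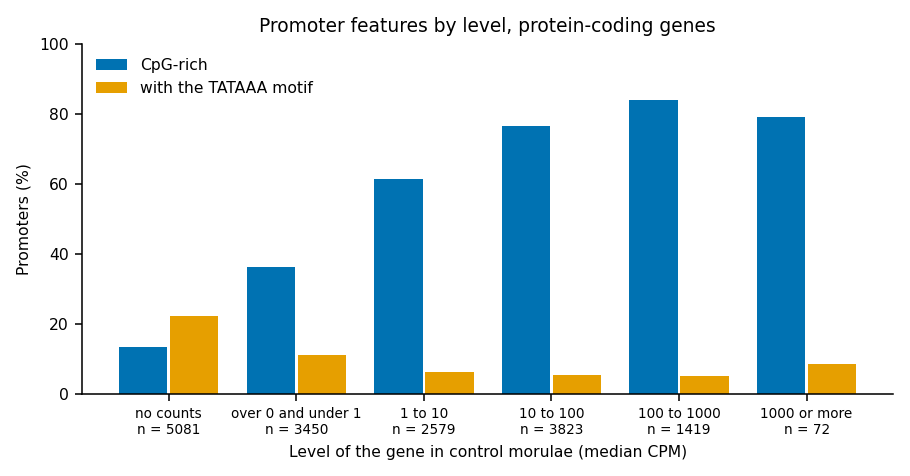
Share of promoters (percent, vertical) that are CpG-rich (blue) or hold TATAAA on either strand (orange), for protein-coding genes grouped by median CPM in the control libraries (horizontal, n promoters under each pair). The blue bars go from 13.3% for genes with no count to 83.9% at 100 to 1000 CPM, and the orange bars from 22.3% to 4.93%.

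Among the 50 highest protein-coding genes with a promoter, 38 were CpG-rich and 5 were below 0.3 of the expected CpG. These 5 were Alppl2, Timd2, Trim43a, Pramel7 and Gpx4, and they were named after their values were seen. Gpx4 has 4 listed starts, of which another reached 0.98, while the other genes stayed below 0.3 at every listed start. Pramel7, of a gene family expressed in the early embryo, was at 1651, 695 and 1660.3 CPM. At the first listed start all 5 lay below the median of the promoters of genes with no counts, 0.199 of the expected CpG. The windows of 5 genes are printed 5′ to 3′ on the strand of the gene with each CpG in capitals, to show an abundant gene with a CpG-rich start (Snx5), a lineage factor (Cdx2), 2 abundant genes with CpG-poor starts and a sperm gene that had no counts (Prm1). They lie at chr2:144270573-144270822 (minus strand), chr5:147307250-147307499 (minus strand), chr1:87089929-87090178 (minus strand), chr9:88580641-88580890 (plus strand) and chr16:10796824-10797073 (minus strand), all in GRCm38.p6, with 36, 13, 3, 1 and 0 CpG.
Snx5: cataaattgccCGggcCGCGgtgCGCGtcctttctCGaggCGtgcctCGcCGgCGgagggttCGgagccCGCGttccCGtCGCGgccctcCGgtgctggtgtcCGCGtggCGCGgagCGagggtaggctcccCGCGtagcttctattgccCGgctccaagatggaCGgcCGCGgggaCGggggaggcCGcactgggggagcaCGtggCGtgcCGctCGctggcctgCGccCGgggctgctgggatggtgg
Cdx2: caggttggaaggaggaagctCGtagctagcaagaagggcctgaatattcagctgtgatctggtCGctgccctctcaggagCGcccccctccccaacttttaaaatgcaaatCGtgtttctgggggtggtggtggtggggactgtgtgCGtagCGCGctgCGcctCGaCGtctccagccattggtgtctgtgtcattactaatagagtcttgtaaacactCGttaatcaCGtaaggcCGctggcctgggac
Alppl2: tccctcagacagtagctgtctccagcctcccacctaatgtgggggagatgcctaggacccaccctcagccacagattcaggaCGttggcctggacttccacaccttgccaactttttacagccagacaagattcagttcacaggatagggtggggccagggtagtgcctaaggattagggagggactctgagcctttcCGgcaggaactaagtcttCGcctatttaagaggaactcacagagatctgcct
Trim43a: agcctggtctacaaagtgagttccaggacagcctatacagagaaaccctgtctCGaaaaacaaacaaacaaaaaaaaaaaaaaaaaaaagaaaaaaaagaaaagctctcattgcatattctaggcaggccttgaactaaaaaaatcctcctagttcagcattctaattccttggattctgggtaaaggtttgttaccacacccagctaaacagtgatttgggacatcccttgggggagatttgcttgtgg
Prm1: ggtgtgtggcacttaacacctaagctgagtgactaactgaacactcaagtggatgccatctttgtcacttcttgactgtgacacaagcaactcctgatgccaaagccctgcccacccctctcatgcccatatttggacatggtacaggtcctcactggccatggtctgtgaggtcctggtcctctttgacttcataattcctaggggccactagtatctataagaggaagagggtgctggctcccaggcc

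The 4 genes used to check the label of the stage were present in every library. Dppa3 was at 1139, 921 and 2256 CPM (mean 1438 ± 716, SD, n = 3), and Cdx2, the trophectoderm factor, at 83.3, 81.2 and 93.8 CPM (mean 86.1 ± 6.74, SD, n = 3). Pou5f1, the factor of pluripotent cells also known as Oct4, was at 47.2, 84.4 and 32.0 CPM (mean 54.5 ± 27, SD, n = 3), and Krt18, a keratin of the first epithelium, at 77.5, 760.2 and 50.5 CPM (mean 296 ± 402, SD, n = 3). Cdx2 was alike in all libraries, while Krt18 was 15.1-fold higher in control 2 than in control 3. Per kilobase, Dppa3 was at 1277, Krt18 at 53.9, Cdx2 at 36.9 and Pou5f1 at 21.0 CPM as medians over libraries, so Dppa3 stood highest of the 4 genes.

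Of 29 pluripotency genes 24 reached 1 CPM in all 3 libraries, with a list median of 57.1 CPM, which was 89.9 CPM without control 2 and 84.1 CPM without control 3. Transcription factors of naive pluripotency were among the highest. Klf5 stood at 513, 936 and 664 CPM, Tfcp2l1 at 1181, 408 and 511 CPM and Sall4 at 1118, 432 and 373 CPM, with Nr5a2, which drives early embryonic transcription, at 282, 301 and 299 CPM. Nr5a2 was level across libraries, whereas Tfcp2l1 and Sall4 were more than 2-fold higher in control 1 than in either other library. Nanog, a defining gene of the inner cell mass, was at 222, 49.8 and 66.8 CPM and Gdf3, a growth factor of pluripotent cells, at 306, 20.4 and 54.0 CPM, again with control 1 highest. Sox2, the partner of Pou5f1, was low, at 1.45, 7.39 and 3.96 CPM. The lowest members were Eras, a Ras gene of embryonic stem cells, at 0.363, 0.976 and 11.7 CPM, Upp1, a uridine phosphorylase, at 7.26, 0.467 and 0 CPM, and Prdm14, a repressor of lineage genes, at 4.81, 0.255 and 0.587 CPM. No member was without counts in all 3 libraries.

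Of 22 trophectoderm genes 13 (59.1%) reached 1 CPM in all 3, against 38.6% of protein-coding genes, with a median of 48.4 CPM. The early factors of the lineage were present. Tfap2c was at 240.2, 334 and 98.9 CPM, Gata3 at 70.6, 212 and 403 CPM, Tead4 at 152, 130.1 and 58.3 CPM and Eomes, the T-box factor, at 25.4, 67.6 and 17.5 CPM. Lrp2, the endocytic receptor megalin, was the highest member at 539.5, 1048 and 1536 CPM. Gata3 and Lrp2 were highest in control 3, while Tfap2c and Tead4 were lowest there. Factors known from later trophoblast were each without counts in 2 of the 3 libraries, with Gata2 at 1.18, 0 and 0 CPM, Elf5 at 0, 0.255 and 0 CPM, Esx1 at 0, 0.0849 and 0 CPM and Plac1 at 0, 1.10 and 0 CPM. Of the 6 keratins of simple epithelia only Krt8, at 71.5, 129.7 and 27.3 CPM, and Krt18 passed 1 CPM in all libraries, both highest in control 2. Krt7 was at 4.90, 8.07 and 0.587 CPM, and Krt20 and Krt80 had no counts.

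Of 16 genes of the primitive endoderm and of Fgf4 signalling, 9 (56.25%) reached 1 CPM in all 3, against 38.6% of protein-coding genes. Gata6, which marks precursors of the primitive endoderm and is widespread in morulae, was high at 1410.0, 672 and 738 CPM. Fgf4, the ligand made by epiblast precursors, was at 103, 98.1 and 59.9 CPM and its receptor Fgfr2 at 172, 162 and 65.8 CPM, with Fgfr1 at 9.34, 42.6 and 11.6 CPM. Factors that follow Gata6 in the lineage were low or absent. Gata4 was at 21.8, 3.52 and 0.881 CPM, Sox7 at 2.63, 1.66 and 0 CPM and Sox17 at 0, 0.849 and 0 CPM, and Foxa2 had no counts. Pdgfra, a receptor of the primitive endoderm, was at 24.8, 52.7 and 6.31 CPM, 8.35-fold apart between control 2 and control 3.

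**Figure D3:**
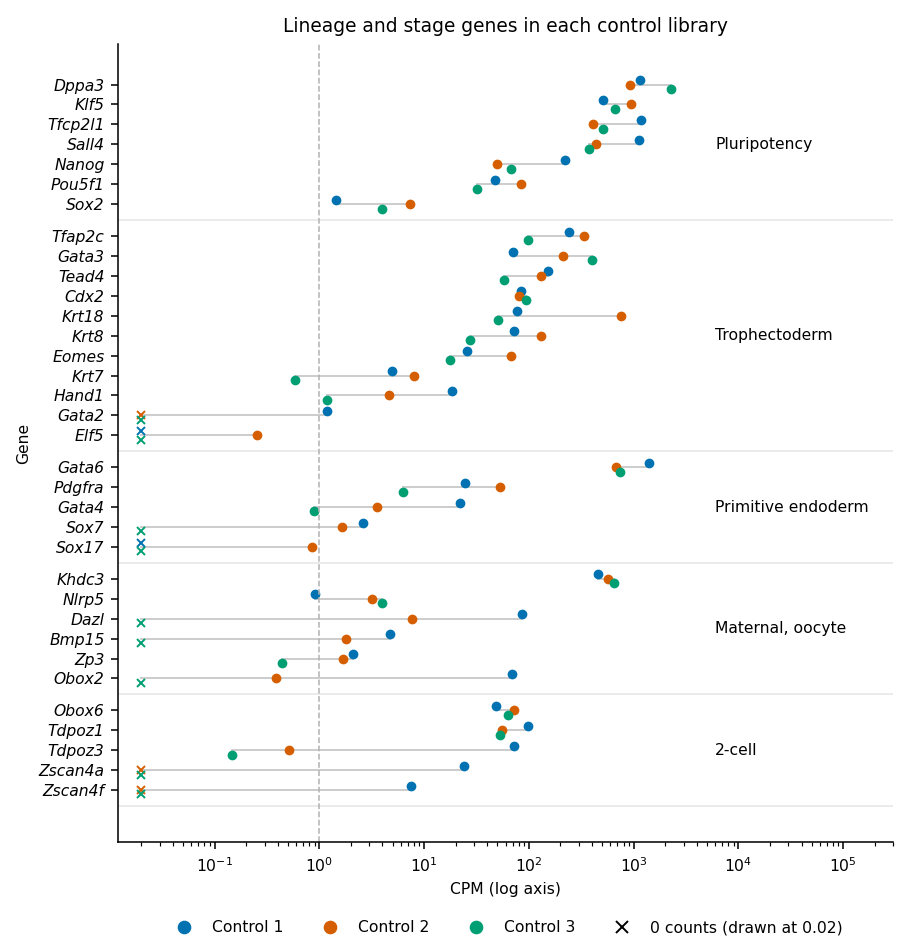
CPM (horizontal, log axis) of lineage and stage genes in control 1, 2 and 3 (blue, orange and green points, joined by a line per gene); crosses at the left edge mark 0 counts and the dashed line is at 1 CPM. Gata6, Cdx2 and Khdc3 sit close together across libraries, whereas Zscan4a, Zscan4f, Obox2 and Tdpoz3 are high in control 1 alone.

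Genes of compaction, polarity and cell junctions were expressed almost throughout, with 27 of 28 at 1 CPM in all 3 and a median of 110.3 CPM. Cdh1, the E-cadherin of compaction, was at 356, 467 and 310.1 CPM, its partner Ctnna1 at 199, 303 and 238 CPM and Ctnnb1, beta-catenin, at 183, 260.2 and 86.4 CPM. Gja1, a gap junction connexin, was the highest by median at 1078, 481 and 780.1 CPM. Of the apical polarity genes, Pard6b was at 147, 319 and 123 CPM and Prkci, an atypical protein kinase C, at 331, 227 and 147 CPM. Of the tight junction genes, Cldn7 was at 2049, 720.5 and 103 CPM, 19.9-fold apart between controls 1 and 3, and Ocln, occludin, at 19.4, 606 and 22.7 CPM, with control 2 more than 20-fold above both others. Over the 25 members at a median of 10 CPM or more, 15 were highest in control 2, 7 in control 1 and 3 in control 3, against 35.1%, 35.3% and 29.6% of all genes at that level.

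Of 20 Hippo pathway genes 18 reached 1 CPM in all 3, and 8 of the 17 at a median of 10 CPM or more were within 2-fold, or 47.1% against 31.7% of all genes at that level. Yap1 was at 171, 143 and 128 CPM and its relative Wwtr1, known as Taz, at 218, 155 and 163 CPM. Amot, the angiomotin that activates the pathway in inner cells, was at 186, 108 and 196 CPM and the kinase Lats2 at 52.7, 41.7 and 47.7 CPM. These genes were steady, while Nf2, the upstream regulator merlin, was at 188, 35.8 and 27 CPM with control 1 high. Of 12 genes of cavity formation, which starts after the morula, 6 (50%) reached 1 CPM in all 3, against 38.6% of protein-coding genes. The sodium pump subunit Atp1b1 was at 12.8, 35.8 and 4.99 CPM and the water channels Aqp3 and Aqp9 at 81.7, 161 and 58.4 and 203, 120.1 and 154 CPM. Aqp8, Fxyd2 and Fxyd6 had no counts.

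Maternal and oocyte transcripts were mostly low. Of 30 oocyte genes 5 (16.7%) reached 1 CPM in all 3, against 38.6% of protein-coding genes and 16.8% of all genes. The list median was 0.295 CPM. That median was 0.564 CPM without control 2 and 0.641 CPM without control 3. Zp3, of the zona pellucida, was at 2.09, 1.70 and 0.440 CPM and the oocyte growth factors Gdf9 and Bmp15 at 0.181, 2.46 and 0.734 and 4.72, 1.78 and 0 CPM. Oosp2, Npm2, Nobox, Figla and Rfpl4 had no counts. Dazl, an RNA-binding protein of germ cells, was at 85.5, 7.68 and 0 CPM, so that only control 1 held a high level. Of the subcortical maternal complex, which oocytes load for cleavage, 5 of 12 genes (41.7%) reached 1 CPM in all 3, a share near that of protein-coding genes. Khdc3, also known as Filia, was the exception in level at 461, 566 and 655 CPM. Its partners Nlrp5 at 0.907, 3.18 and 3.96 CPM, Ooep at 6.17, 24.4 and 2.35 CPM and Tle6 at 0, 1.78 and 0 CPM were far lower. Khdc3 was within 2-fold across libraries, while Nlrp4f was at 0, 0.170 and 26.1 CPM, high in control 3 alone.

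Genes of the 2-cell stage and genome activation set control 1 apart. Of 28 genes 7 (25%) reached 1 CPM in all 3, against 38.6% of protein-coding genes and 16.8% of all genes. The 28 genes summed to 725, 288 and 333 CPM. The 6 Zscan4 genes, which mark the 2-cell stage, summed to 41.5 CPM in control 1 and had no count in controls 2 and 3. Zscan4a led with 23.9, 0 and 0 CPM. Tdpoz3, of a family of genes with a TRAF domain, was at 71.5, 0.509 and 0.147 CPM, and the homeobox gene Obox2 at 69.3, 0.382 and 0 CPM, both again high in control 1 alone. Obox6 at 48.7, 72.5 and 63.3 CPM and Tdpoz1 at 97.4, 55.7 and 53.4 CPM were present in every library, so not all families of this kind followed the pattern. Members of these families are near-identical copies and the sources used here do not say how shared reads were counted, so counts of single members are uncertain. The Trim43 and Pramel families, taken as a whole, showed no such absence. All 3 Trim43 genes reached 1 CPM in all libraries. Of 47 Pramel genes 14 (29.8%) did so, a share below that of protein-coding genes, and 8 had no count in any control. The family sums were 3783, 1348 and 4940.1 CPM for Trim43 and 2959.7, 1685 and 3607 CPM for Pramel. Both sums were lowest in control 2.

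Levels of imprinted genes varied widely. Of 23 paternally expressed genes 10 (43.5%) reached 1 CPM in all 3, against 38.6% of protein-coding genes and 16.8% of all genes. The highest were Impact at 197, 99.8 and 102 CPM and Slc38a4, an amino acid transporter, at 31.3, 101 and 28.2 CPM. Sfmbt2, a Polycomb-type gene of extraembryonic tissue, was at 23.6, 29.6 and 66.5 CPM and Peg3, a zinc finger gene, at 21.8, 26.6 and 11.3 CPM. Igf2, the fetal growth factor, had no count in any library, nor had Dlk1, Magel2, Nnat and Airn. Of 17 maternally expressed genes 5 (29.4%) passed, led by Igf2r, the receptor that clears Igf2, at 300.5, 390.0 and 250.4 CPM. H19 had no count, and Cdkn1c, a cell cycle inhibitor, was at 0.998, 2.67 and 0 CPM. Whether transcripts came from 1 parental allele cannot be read from gene counts.

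Both X inactivation and the Y chromosome left transcripts in every library. Xist, the RNA that coats the inactive X, was at 333, 161 and 596 CPM and Rlim, which activates it, at 422, 280.3 and 323 CPM. The Y-linked helicase gene Ddx3y was at 7.62, 32.6 and 38.3 CPM and Eif2s3y at 2.81, 10.4 and 9.98 CPM. Each library therefore held RNA with both female and male markers. Of 15 genes of DNA methylation and its removal, 14 reached 1 CPM in all 3. Dnmt3b, a de novo methyltransferase, was at 82.2, 79.9 and 89.1 CPM, Dnmt1, the maintenance enzyme, at 23.9, 29.8 and 114 CPM and Tet2, which oxidises methylcytosine, at 150.0, 81.4 and 231 CPM. Trim28, the corepressor that protects imprints, was the highest at 317, 437 and 228 CPM.

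Genes of mitochondrial energy metabolism and of glycolysis were mostly expressed. Of 31 genes of pyruvate use and the citrate cycle 28 reached 1 CPM in all 3, with a median of 90.9 CPM, against 16 of 21 glycolytic genes with a median of 32.4 CPM. These medians are not corrected for transcript length. Mdh2, the mitochondrial malate dehydrogenase, was at 2143, 676 and 1098 CPM, Pdhb, of pyruvate dehydrogenase, at 768, 415 and 895 CPM and Ogdh, of 2-oxoglutarate dehydrogenase, at 322, 325 and 312 CPM. Ogdh was among the steadiest genes of all, while Sucla2, a succinyl-CoA ligase, at 244, 384 and 2588 CPM, was high in control 3. The kinases that switch pyruvate dehydrogenase off were low, with Pdk1 at 0.544, 8.07 and 0 CPM, Pdk2 at 0, 0.594 and 0.881 CPM and Pdk3 at 22.3, 8.41 and 0.587 CPM.

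In glycolysis the glucose transporter Slc2a3 was highest at 1155, 804 and 323 CPM, with Slc2a1 at 88.7, 46.5 and 46.7 CPM and the lactate and pyruvate transporter Slc16a1 at 98.4, 365 and 251 CPM. Hk2, a hexokinase, was at 20.2, 561 and 42.1 CPM and Eno1, enolase, at 16.3, 331 and 7.49 CPM, both more than 10-fold higher in control 2 than elsewhere. Ldha, which makes lactate, was at 57.8, 26.9 and 3.96 CPM and Ldhb, its partner, at 8.43, 1.36 and 5.72 CPM. Aldoc and Slc16a7 had no counts. Gapdh, at 182, 218 and 127 CPM, and Eno1 have near-identical copies in the genome, so their counts are uncertain. The pentose phosphate genes were steadier, with 6 of 7 at 1 CPM in all 3 and 4 of 6 within 2-fold. Taldo1, transaldolase, was at 309.6, 305 and 279 CPM.

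Fatty acid oxidation was represented by 15 of 17 genes. Acadl, a dehydrogenase of long chains, was at 362, 359.8 and 544 CPM, Cpt1a, the liver-type carnitine palmitoyltransferase, at 242, 185 and 173 CPM and Cpt1b, the muscle type, had no counts. Of 23 genes of one-carbon and serine metabolism 23 passed. Besides Gldc, Psat1 of serine synthesis was at 1685, 1365 and 1165 CPM, Gcsh of the glycine cleavage system at 457, 1008 and 1409 CPM and Bhmt, which remethylates homocysteine from betaine, at 919, 1004 and 1824 CPM. Bhmt was higher than Mtr, the folate-dependent methionine synthase at 12.6, 31.8 and 33.2 CPM, in every library, and per kilobase the medians were 174 and 3.73 CPM. Mthfsd, a relative of a folate enzyme, was at 8.89, 32.5 and 519.7 CPM, high in control 3 alone.

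Because the series concerns alcohol, the enzymes that oxidise it were read in these unexposed embryos. Of 14 alcohol and aldehyde enzymes 6 (42.9%) reached 1 CPM in all 3, a share near the 38.6% of protein-coding genes. Adh4, Adh7 and Cyp2e1 had no counts, and Adh1, the liver alcohol dehydrogenase, was at 0, 0.0849 and 0 CPM, within the limit that 3 counts set. Over the 3 libraries together, 3 counts came to 0.0725 CPM, so a lower level of these genes could not have been detected. Adh5, a dehydrogenase that mainly handles formaldehyde, was at 16.9, 38.4 and 18.6 CPM, and Aldh2, the mitochondrial enzyme that clears acetaldehyde, at 38.2, 58.2 and 158 CPM. Of 27 antioxidant genes 26 passed, led by the peroxidases Prdx1 at 1465, 1412 and 919 CPM and Gpx4 at 1232, 671 and 2822 CPM and by Fth1, ferritin heavy chain, at 765, 1118 and 464 CPM. Hmox1, the inducible heme oxygenase, was at 14.7, 37.9 and 1.32 CPM, lowest in control 3.

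Mitochondrially encoded messages held 1.03%, 1.13% and 1.89% of the counts. They were uneven between genes of 1 genome. mt-Co1, subunit 1 of cytochrome oxidase, was at 5359, 4889 and 5132 CPM and mt-Cytb at 1335, 1442 and 3188 CPM, but mt-Co2 was at 0.998, 0.807 and 3.67 CPM, mt-Co3 at 1.36, 1.36 and 7.19 CPM and mt-Atp6 at 3.36, 11.1 and 26.1 CPM. Near-identical copies of parts of the mitochondrial genome lie in the nuclear genome, and reads that match both may have been dropped or assigned to either, so these low values are uncertain. Nuclear genes of the respiratory chain were nearly all expressed, 36 of 37 for complex I and 35 of 36 for complexes III to V. Of the 35 of the latter at a median of 10 CPM or more, 22 were highest in control 3, against 29.6% of all genes at that level, and control 3 also had the highest share of mitochondrial messages. Ndufs1, the largest subunit of complex I, was level at 209, 225 and 223 CPM, whereas Cox5a of cytochrome oxidase was at 22.2, 121 and 427 CPM.

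Genes of protein synthesis, folding and breakdown were abundant. The 79 cytosolic ribosomal protein genes summed to 38118, 37721 and 65643 CPM, and 53 of the 76 at a median of 10 CPM or more were highest in control 3, against 29.6% of all genes at that level. Rpl4 was level at 4469, 4056 and 4045 CPM, Rps27, a small subunit gene, was at 179, 177 and 749.6 CPM, and Rpl24 and Rps10 were at 2.0, 0.679 and 15.6 and 3.63, 0.892 and 5.58 CPM. Many of these genes have processed copies and their single counts are uncertain. The nucleolar genes Ncl, nucleolin, at 248, 769.7 and 3752 CPM and Npm1, nucleophosmin, at 328, 774 and 2115 CPM were highest in control 3. Most of the nucleolus list was not. Of its 22 genes, all at a median of 10 CPM or more, 9 were highest in control 3, 7 in control 2 and 6 in control 1. Of 33 translation factors 32 passed, with a median of 429.9 CPM, and Eef1a2, the muscle and nerve form of elongation factor 1 alpha, had no counts.

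The proteasome was the list on which the libraries agreed best among those with at least 20 genes at a median of 10 CPM. All 31 genes passed 10 CPM in all 3 libraries, 18 of them (58.1%) within 2-fold, and the median ratio of the highest to the lowest library was 1.78 against 2.65 for all genes at that level. Psmb2, a catalytic-core subunit, was at 159.9, 159 and 155 CPM and Psma1 at 822, 1143 and 1251 CPM. The chaperones had a list median of 592 CPM, and the subunits of the CCT chaperonin ran from Cct4 at 1538, 2273 and 2574 CPM to Tcp1 at 394, 599 and 482 CPM. The stress-inducible forms did not share this level. Hspa1a was at 4.44, 97.1 and 2.64 CPM, Hspa1b at 18.9, 144 and 5.87 CPM and Hspb1 at 6.26, 7.77 and 0.294 CPM, and both Hspa1 genes, near-identical to each other, were highest in control 2.

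**Figure D4:**
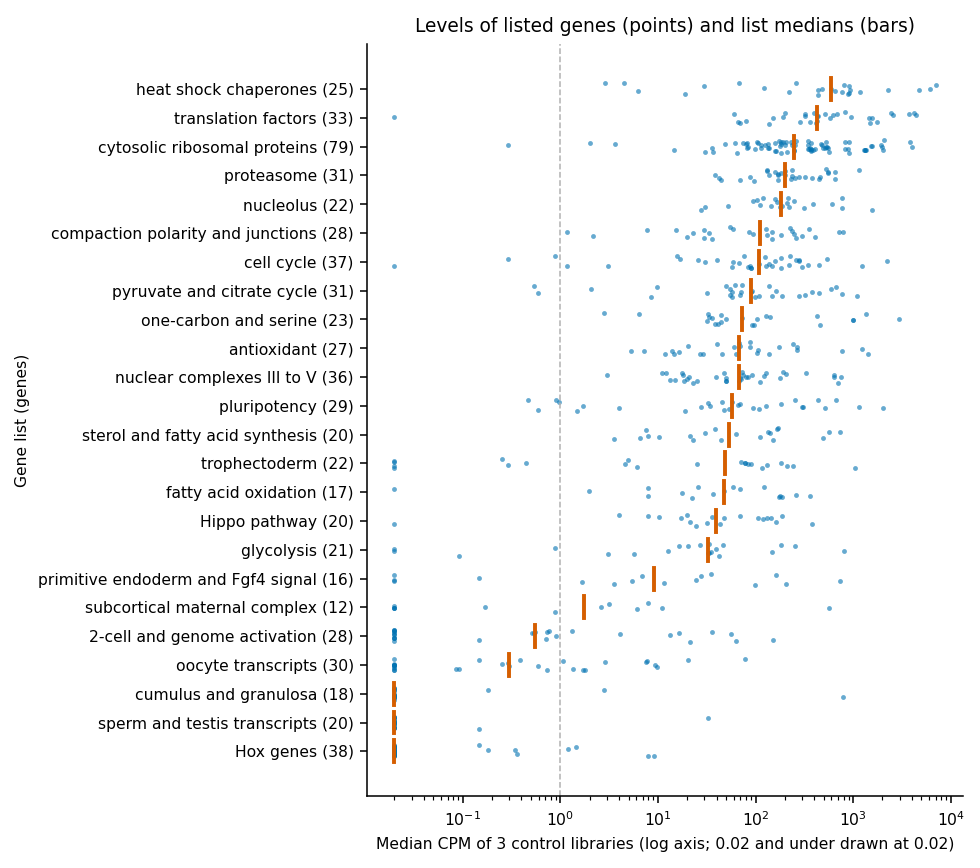
Median CPM over the 3 control libraries (horizontal, log axis) of each gene of 24 lists (blue points, number of genes in brackets), with the list median as an orange bar and a dashed line at 1 CPM. Of the lists drawn, chaperones and translation factors lie highest, with medians of 592 and 430 CPM, while the medians of the cumulus, sperm and Hox lists are at 0 and drawn at the left edge.

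Proliferation genes were expressed at high levels, 34 of 37 at 1 CPM in all 3. Ccne1, cyclin E1 of S phase entry, was at 1247, 1548 and 709 CPM and Cdk1, the mitotic kinase, at 450.0, 301 and 586 CPM. The D cyclins of somatic cells were low, with Ccnd1 at 0.363, 8.79 and 0.881 CPM, Ccnd2 at 26.8, 1.02 and 1.17 CPM and Ccnd3 at 61.3, 30.6 and 10.3 CPM. The inhibitors Cdkn1b and Cdkn2a were at 0.0907, 1.02 and 0.294 and 0, 0.0849 and 0 CPM. Mcl1, a survival factor, was the highest apoptosis gene at 439, 609 and 669 CPM, whereas Bcl2 was at 0, 0.0849 and 0 CPM and Casp8 had no counts. Of 20 p53 targets 18 passed, led by Ccng1, cyclin G1, at 1120.2, 1179.6 and 517 CPM, and Trp53 itself was at 128, 113 and 40.9 CPM, lowest in control 3.

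Stress genes varied more between libraries than the other lists with at least 20 genes at a median of 10 CPM. For the 26 genes of the unfolded protein and integrated stress responses at a median of 10 CPM or more, the median ratio of highest to lowest library was 4.08 against 2.65 for all genes at that level, with 17 highest in control 1, 9 in control 2 and none in control 3, against 35.3%, 35.1% and 29.6% of all genes at that level. Atf4, the factor of the integrated stress response, was at 414, 207 and 47.1 CPM and its targets Chac1, Trib3 and Ddit3 at 50.5, 21.7 and 0, 33.6, 14.5 and 4.40 and 27.8, 1.57 and 0 CPM. All 4 genes were highest in control 1 and lowest in control 3. Atf3, a stress-induced factor, was instead at 0.726, 91.3 and 0.440 CPM, high in control 2 alone. Of the immediate early genes, Btg2 was at 129.8, 360.4 and 20.8 CPM, Jun at 37.3, 20.6 and 5.43 CPM and Fos at 5.35, 10.1 and 2.94 CPM, while Egr2 had no counts.

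Receptor genes for several growth factors were expressed, and others were near the limit of detection. Of 23 growth factor receptors 14 (60.9%) passed, against 38.6% of protein-coding genes. Erbb3, a receptor of neuregulins, was the highest at 836, 449 and 122 CPM, ahead of Bmpr1a, a receptor of bone morphogenetic proteins, at 199, 220.2 and 71.9 CPM. Erbb2, the partner of Erbb3, was at 14.3, 8.92 and 7.04 CPM and Egfr at 10.8, 2.12 and 4.99 CPM, and Erbb4 had no counts. Erbb3 was 6.88-fold higher in control 1 than in control 3. The insulin receptor Insr was at 0.907, 1.10 and 0.587 CPM, Igf1r at 0.0907, 2.89 and 0 CPM and Lifr, the receptor of leukemia inhibitory factor, at 0, 3.35 and 0 CPM, near the limit in each library but control 2. Of 20 amino acid transporter genes 12 (60%) passed. The highest were Slc6a8, which carries creatine, at 381, 338 and 152 CPM and Slc1a1, which carries glutamate and aspartate, at 295, 182 and 108 CPM.

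Among structural genes the cytoplasmic actins Actb and Actg1 were at 1255, 1578 and 573 and 770.1, 1673 and 1158 CPM, while Vim, vimentin of mesenchymal cells, was at 0, 1.19 and 0 CPM. All 24 lysosome and autophagy genes passed 1 CPM in all 3, with Map1lc3b, which coats autophagosomes, at 1487, 1767 and 2049 CPM and Ctsl, cathepsin L, at 877, 1219.7 and 1059 CPM. Of the 22 at a median of 10 CPM or more, 18 were highest in control 2, against 35.1% of all genes at that level. Of 20 genes of sterol and fatty acid synthesis 19 passed, led by Elovl6, which lengthens fatty acids, at 739.8, 510.4 and 773 CPM and the desaturase gene Scd2 at 613, 563 and 350.0 CPM. The replacement histone gene H3f3a was at 909, 685 and 1958 CPM. Of 75 other histone genes, taken by the form of their symbols, only 2 passed. Not all of these are cluster genes, since the highest by median was the linker histone gene H1f0, at 14.1 CPM. Symbols of another form, as that of H3f3a, are not among them. In a separate list of 18 core and variant histone genes, 11 (61.1%) passed, with a median of 48.8 CPM.

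Transcripts of the gametes' surroundings and of other tissues were mostly absent or low. Of 20 sperm and testis genes 14 had no count in any library, the protamine genes Prm1, Prm2 and Prm3 among them, and only Odf2, which also serves centrosomes, passed 1 CPM, at 44.3, 32.8 and 24.5 CPM. Of 18 cumulus and granulosa genes 13 had no count, among them Has2, Ptx3, Tnfaip6 and Fshr. The only member to pass was Gja1, which the embryo expresses itself. Without Gja1 the list summed to 6.08, 0.849 and 3.52 CPM, most of it Star, a cholesterol carrier, at 5.89, 0.170 and 2.79 CPM. Alb and Ttr of liver, the beta-globins Hbb-bs and Hbb-bt, Ptprc of leukocytes, Ckm of muscle, and Gfap and Snap25 of the nervous system had no counts. Over the lists of liver, neural, fibroblast, blood and immune, and muscle and heart genes, those at 1 CPM or more in all 3 libraries were Fn1, fibronectin, at 73.2, 133 and 166 CPM, Pecam1, an adhesion molecule of endothelium and early embryos, at 20.7, 28.1 and 15.1 CPM, Apoa1, an apolipoprotein, at 12.1, 18.8 and 3.82 CPM and Postn, periostin, at 2.99, 11.8 and 2.64 CPM. Some others were high in part of the libraries. Mbp, a myelin gene, was at 49.5, 38.5 and 0 CPM, Tubb3, a neuronal tubulin, at 18.2, 0 and 0 CPM, Thy1, a surface protein of fibroblasts and neurons, at 10.6, 0.0849 and 0 CPM and Cd68, of macrophage lysosomes, at 11.6, 2.84 and 0 CPM. These genes were named after their values were seen.

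Genes of the stages after implantation were mostly near the limit of detection. None of 38 Hox genes reached 1 CPM in all 3 libraries. Fgf5 of the later epiblast had no counts, nor had Lefty1 and Cer1, inhibitors of Nodal signalling. Otx2, a homeobox gene of the epiblast and head, was at 54.7, 18.8 and 9.98 CPM. Large families had few expressed members, with 2 of 1418 olfactory receptor genes, 1 of 588 vomeronasal receptor genes and none of 642 immunoglobulin and T cell receptor segments at 1 CPM in all 3. The exception in level was Olfr1459, named after its values were seen, at 60.2, 81.2 and 23.9 CPM. Of 135 cytochrome P450 genes 5 passed.

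Of the 14232 genes at 1 CPM or more in any control, 9033 (63.5%) reached it in all 3 libraries, 2080 (14.6%) in 2 and 3119 (21.9%) in 1 only. Over the same genes Pearson's r of log2(CPM + 1) was 0.854 between controls 1 and 2, 0.814 between 1 and 3, and 0.837 between 2 and 3. Spearman's rank correlation was 0.826, 0.779 and 0.805 in the same order. These are descriptions across genes, which share their library and its depth. Genes chosen by their level in controls would not serve to set these pairs beside pairs with an ethanol library, so r was also taken over the 16617 genes at 1 CPM or more in any library of the series. Over those genes the 3 pairs of controls had r of 0.848 to 0.883 with a median of 0.867, and the 18 pairs of a control and an ethanol library 0.804 to 0.927 with a median of 0.872. The ranges overlapped. No pair of controls was a repeat of the same library, since their counts gave a chi-square of 206 to 229 times its degrees of freedom, far beyond sampling noise. The common biological coefficient of variation, edgeR's estimate of the typical relative SD between replicates beyond counting error, was 0.655.

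**Figure D5:**
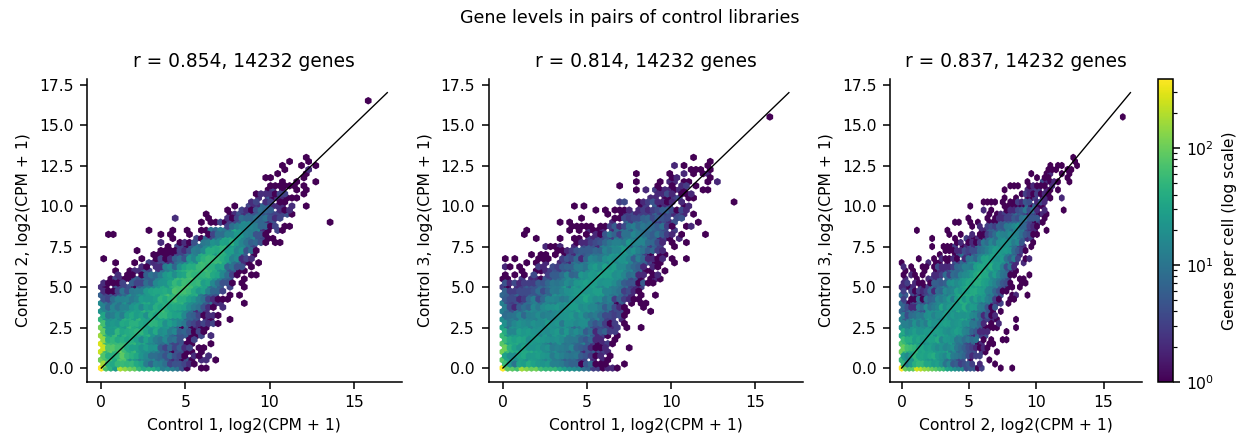
Log2(CPM + 1) of 14232 genes in each pair of control libraries (axes), coloured by the number of genes per cell of the plot on a log scale; the line marks equal levels. Points spread on both sides of the line and along both axes, the latter being genes found in 1 library of the pair only, and r is 0.854, 0.814 and 0.837.

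Agreement was better for abundant genes. The median ratio of the highest to the lowest library was 6.58 for genes at a median of 1 to 10 CPM, 2.94 at 10 to 100, 2.13 at 100 to 1000 and 2.24 above 1000 CPM. Within 2-fold were 9.27%, 26.7%, 44.7% and 43.2% of the genes in the same order. Of 6842 genes at 10 CPM or more, 2167 (31.7%) were within 2-fold and 531 (7.76%) at least 10-fold apart. The lists of the highest genes overlapped in part, since 22 of the top 50, 44 of the top 100 and 271 of the top 500 were shared by all 3 libraries. The steadiest genes at 100 CPM or more, by the rule that took the 10 smallest ratios, had ratios of 1.02 to 1.05. They were Lpgat1, an acyltransferase, at 178, 178 and 175 CPM, Msmo1 of sterol synthesis at 125, 121 and 125 CPM, Psmb2, Ogdh, the kinase genes Dyrk1a at 188, 193 and 196 CPM and Gsk3b at 217, 217 and 207 CPM, the chromatin genes Rbbp4 at 287, 299.6 and 288 CPM and Arid2 at 265, 272 and 278 CPM, and the nuclear transport genes Xpot at 386, 401 and 383 CPM and Cse1l at 308, 321 and 306 CPM. Such a list is the tail of 1888 genes in 3 libraries, so it describes these libraries and need not hold in others.

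At the other end, 445 genes were at 10 CPM or more in 1 library and at least 10-fold above the higher of the other libraries, 164 in control 1, 146 in control 2 and 135 in control 3, and 66 of them had no count elsewhere. Among genes at 100 CPM or more in that library, those with a gene name and the largest ratio in control 1 were Kmt2a, a histone methyltransferase, at 186, 6.62 and 1.61 CPM and Tagap1, a GTPase-activating protein gene, at 335, 15.4 and 12.8 CPM. In control 2 they were Arhgap39, a regulator of small GTPases, at 0.363, 291 and 0 CPM, Camsap3, which binds microtubule ends, at 6.35, 329 and 4.40 CPM and Arl2bp, which binds a small GTPase, at 2.99, 149 and 0 CPM. In control 3 they were Ncmap, a myelin protein gene, at 0.544, 1.61 and 106 CPM and Sugp1, a splicing factor, at 29.6, 31.4 and 991 CPM. Genes at 10 CPM or more in both other libraries and at least 10-fold lower in the library itself numbered 52, 12 and 160. The largest number was thus in control 3. Whether depth has a part in this was not tested.

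Differences that involved control 3 moved with base composition. Over 6725 genes at a median of 10 CPM or more with a known sequence, the log2 ratio of control 1 to control 2 had a Spearman correlation with the G and C content of the transcript of 0.00474. For control 1 to control 3 it was 0.225 and for control 2 to control 3 0.250, so genes rich in G and C were relatively lower in control 3. With transcript length the correlations were 0.0147 to 0.0406. At a level of 10 to 100 CPM, genes with CpG-poor promoters had a median ratio of highest to lowest library of 3.33, against 2.79 for CpG-rich ones, and at 100 to 1000 CPM the ratios were 2.22 and 2.12. At 1000 CPM or more the order was the opposite, with 2.25 for 15 CpG-poor and 2.31 for 57 CpG-rich genes. The part of base composition in the values of single genes was not tested.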

How the data were processed

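Each deposited file holds the raw counts of 1 library, as whole numbers per gene. The authors counted with featureCounts on GRCm39, per the submitters' processing notes, which also name DESeq2. The header of control 2 names RNA STAR, per the file headers. The aligner of controls 1 and 3, versions, annotation, strand setting and treatment of shared reads are not given in the sources used here. Library totals are given with the results.

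CPM were computed on the full total of each library, and genes were ranked by the median over the 3 controls. Correlations used log2(CPM + 1), with a pseudocount of 1 CPM. Exon length, base composition and gene class came from GENCODE M21, of the older build GRCm38, so no gene coordinates are given. Promoter windows came from RefSeq, GRCm38.p6. The coefficient of variation came from edgeR 4.0.16 in R 4.3.3 and was checked on simulated counts. Of 1084 listed symbols 1080 were found, 15 of them through older symbols.

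Genes named are the 30 highest by CPM or CPM per kilobase, high, low and absent members of 52 lists, the 10 steadiest genes at 100 CPM or more, and 3 genes per library with the largest ratio over the others among genes at 100 CPM or more there. The members and lists were chosen with earlier results of these data known. No test between groups was run. Alternatives were TMM and DESeq2 1.42.0 size factors, totals without mitochondrial and ribosomal RNA genes, thinning to the smallest control, other thresholds, pseudocounts and ratios, and each library left out. The promoter windows, any listed start as their alternative, and correlations over genes at 1 CPM in any library of the series were chosen after seeing the data.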

Additional observations from a re-analysis of the deposited data

How the results depend on the processing

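Of 78 alternative values of the main results 64 stayed and 14 moved. Counts of genes and of lists stayed where they were within 1.5-fold of the main value. The correlation stayed where it differed by less than 0.0197, the SD over the pairs of controls. The coefficient of variation stayed where it differed by less than 0.0334, its SD over the fits with a library left out. The median Pearson correlation of the control pairs, 0.837, was 0.867 with a pseudocount of 5 CPM, 0.741 over genes at a median of 10 CPM or more, 0.867 over genes at 1 CPM or more in any library of the series and 0.927 with no filter, and 0.783 to 0.835 when a library was left out. Genes within 2-fold at 10 CPM or more numbered 3420 to 4507 with a library left out, against 2167, because 2 libraries in place of 3 must agree. The coefficient of variation was 0.614 to 0.675. Genes high in 1 library numbered 562 to 892 with a library left out, 860 at a ratio of 5 and 263 at a ratio of 20, against 445. A list median stayed where it differed by less than the SD of that median over the libraries. Of 363 list medians under the alternatives 318 stayed and 45 moved, 40 of these when a library was left out. No paired analysis was possible because replicate numbers follow accession order, pair nothing, and no comparison between groups was made. Depth limits the genes near 1 CPM, which rest on 6.81 counts in control 3.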
